A study of Rattus norvegicus with 24 samples.

Results

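Hearts of rats instilled with PM-LD, a low-dose saline suspension of oil combustion particles with both their soluble and insoluble parts, were compared with hearts of rats instilled with MSH, Mount St. Helens volcanic ash. The comparison took every array whose title carried the label of either group, 8 of the 24 arrays of the series: 4 of PM-LD and 4 of MSH. The rats were male Wistar Kyoto (WKY), 12 to 14 weeks of age when purchased, before the weeks of exposure. RNA came from the left ventricle plus septum, taken 48 h after the last of the weekly intratracheal instillations. The label of PM-LD gives 7.25 µg of water-soluble zinc and 1.5 µg of water-soluble nickel per mg, with the insoluble part of the particles. PM-HD, a higher dose of the same particles, is labelled 14.5 µg and 3.0 µg per mg. By the paper both groups received the same particle sample, with 14.5 µg of water-soluble zinc per mg, and PM-LD the lower dose. The lower PM-LD figures therefore do not describe particles with less zinc per mg. MSH is an ash free of water-soluble zinc and other metals. Both groups therefore received solid particles in saline, under halothane anesthesia, and neither is an untreated heart. In the 8-week arm of the study the particle mass was 2.3 mg/kg per week for PM-LD and 4.6 mg/kg per week for MSH, a ratio of 0.5, so the kind of particle and its mass cannot be told apart here. By the paper the MSH arrays come from the 8-week time point. How many weeks of exposure lay behind the PM-LD arrays, and at what time of day the hearts were taken, was not stated in the labels or methods. The length of exposure may therefore differ between the groups, and the ratio of 0.5 holds only if PM-LD was also exposed for 8 weeks. The replicates are 4 biological replicates per group by the study's methods.

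The heart, like other organs, keeps a circadian clock. CLOCK and BMAL1 bind E-box sequences and switch on the Period genes, the REV-ERB repressors (Nr1d1, Nr1d2) and the factors Dbp, Tef and Hlf. REV-ERB proteins in turn repress Bmal1 through ROR response elements, so that Bmal1 runs opposite to Dbp and Nr1d1 over the day. Soluble zinc is sensed by MTF1, which raises metallothioneins through metal response elements. Cardiomyocytes draw most of their energy from fatty acid oxidation, and the matrix around them is made by fibroblasts and remodelled by matrix metalloproteinases.

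The groups separated only weakly. Between PM-LD and MSH, 535 probe sets were higher and 405 were lower in PM-LD hearts at the study thresholds, an unadjusted p under 0.05 with a signal more than 25% higher or lower. Probe sets are the array's groups of probes for a transcript. These 940 were 5.92% of the 15866 probe sets tested (3.37% higher, 2.55% lower), with a median fold of 1.65 among the higher and 0.622 among the lower, and 212 of them differed by more than 2-fold. No probe set passed a Benjamini-Hochberg adjusted p under 0.05 in limma (lowest 0.105), against 1042 at an unadjusted p under 0.05, or 6.57%. By chance alone a share of about 0.05 of the probe sets would reach an unadjusted p under 0.05. Many of the calls are therefore expected to be false. Of all probe sets, 474 (2.99%) had 4 PM-LD arrays lying apart from the 4 MSH arrays in both the deposited signals and the normalized values (1.29% higher, 1.70% lower), and 288 (1.82%) also passed the thresholds. Counted by gene, with the brightest probe set standing for each of 10411 genes, 283 were higher and 244 were lower (5.06% in all, 2.72% higher, 2.34% lower), and 608 (5.84%) had an unadjusted p under 0.05. The arrays lay apart for 299 genes, or 2.87% (1.10% higher, 1.77% lower), of which 167, or 1.60% of all genes, also passed. For scale, the same thresholds called 4.11% of probe sets between PM-LD and saline, 3.18% between MSH and saline, 2.81% between PM-HD, the high dose of the same particles, and MSH, and 4.66% between PM-HD and PM-LD. The median log2 difference over all genes was -0.02, and 46.7% of genes had a positive one.

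The arrays were uneven in RNA quality and in atrial tissue. The Gapdh ratio, the signal of the 3′ control probe set of Gapdh over that of its 5′ one, grows as RNA degrades. It was 1.91, 1.22, 4.64 and 1.22 in PM-LD replicates 1 to 4, against 3.31, 2.36, 2.02 and 3.15 in MSH replicates 1 to 4. By this ratio 3 of the 4 PM-LD arrays lay below every MSH array and the other above all of them, with medians of 1.56 in PM-LD and 2.76 in MSH (exact permutation p = 0.343, two-sided). The same ratio for Actb had medians of 1.86 in PM-LD and 2.41 in MSH (exact permutation p = 0.143, two-sided), and there MSH replicate 3 was the highest of the 8 arrays, at 3.42. The mean log2 level of the atrial transcripts Nppa, Myl4, Myl7 and Sln was 13.1 in PM-LD replicate 2 and at most 9.40 in the other PM-LD arrays, against 9.16 to 11.4 in MSH. PM-LD arrays correlated with each other at 0.909 to 0.954, against 0.951 to 0.966 among MSH arrays. All 8 arrays carried ventricular cardiomyocyte transcripts at the top of the scale, with a mean log2 level of those markers from 14.3 to 14.5 in PM-LD and from 14.5 to 14.6 in MSH.

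A single array moved the count of calls. Without PM-LD replicate 3, the array with the highest Gapdh ratio, 1716 probe sets were called (853 higher, 863 lower) and 4 passed the adjusted threshold. Without PM-LD replicate 4 the count was 694. When every array of the series with a Gapdh ratio above 3 was left out, PM-LD replicate 3 and MSH replicates 1 and 4 among them, 1894 were called. Calls thus rose over the whole array in the fits of 1716 and 1894. Counts of list members given below for those fits stand beside these totals and not beside 940. Of the 940 probe sets, 240 (150 higher and 90 lower, standing for 137 genes) kept their call without any 1 of the 8 arrays.

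**Figure D1:**
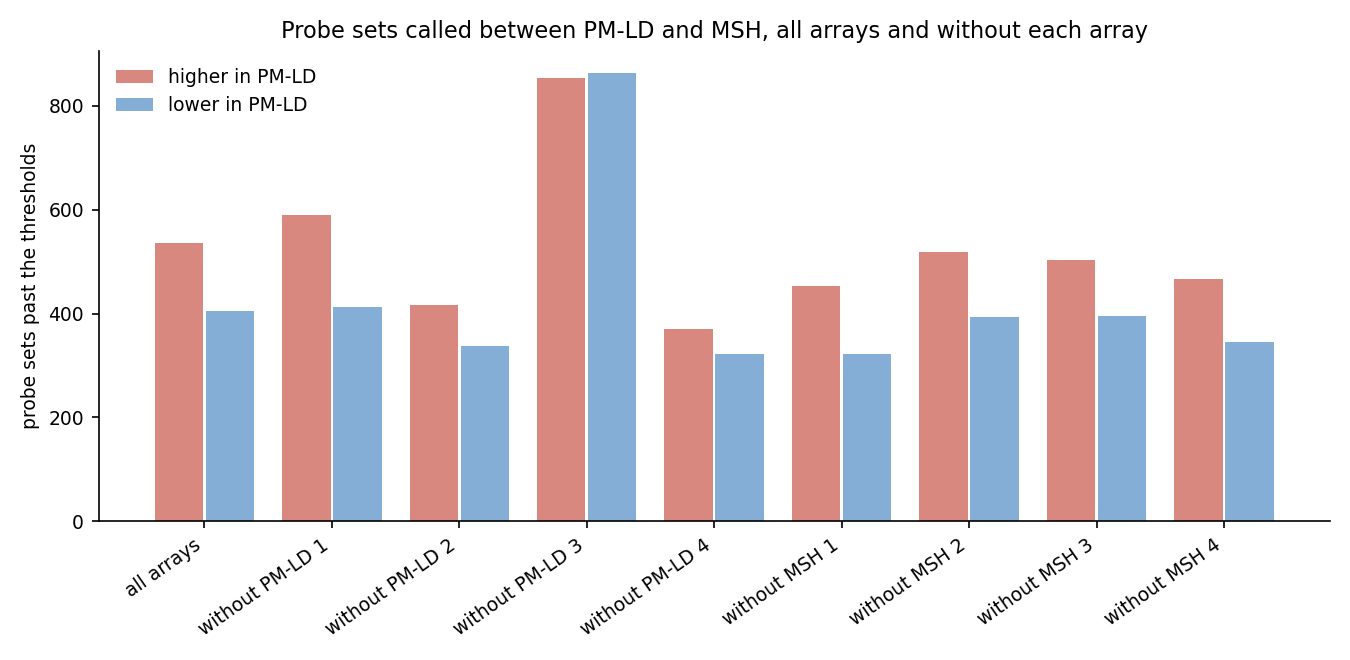
Number of probe sets past the study thresholds between PM-LD and MSH (y axis, higher and lower in PM-LD as paired bars), with all arrays and without each array in turn (x axis). All arrays gave 535 higher and 405 lower, and leaving out PM-LD replicate 3 gave 853 and 863, the tallest pair of bars.

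Clock genes were the list with the largest share of calls. Of the 9 measured genes that peak with Dbp, 5 were higher in PM-LD hearts and none was lower, against 2.72% higher among all genes, and their median log2 difference was 0.96. Dbp, a transcription factor that carries the clock's signal to its output genes, had signals of 967, 802, 1222 and 783 in PM-LD replicates 1 to 4, and of 224, 798, 245 and 154 in MSH. All PM-LD arrays were high, and MSH replicate 2 was the only MSH array near them, at a signal just above the lowest PM-LD array. The log2 difference was 1.70 (SE 0.42), a 3.24-fold higher level, with an adjusted p of 0.39 in limma.

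Nr1d1, which encodes the repressor REV-ERBα, had signals of 1113, 986, 1112 and 731 in PM-LD and of 305, 875, 476 and 330.4 in MSH. Again MSH replicate 2 alone overlapped PM-LD, and the log2 difference was 1.12 (SE 0.33). Its paralog Nr1d2 had signals of 1043, 1123, 1415 and 1025 in PM-LD and of 391, 899.6, 640.5 and 539.7 in MSH. Here no array overlapped, the log2 difference was 0.96 (SE 0.32), and both further probe sets of Nr1d2 passed too, by 1.85 and 0.87.

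Tef, a factor related to Dbp, was dim: 137, 105, 278 and 78.6 in PM-LD, against 99.6, 8.7, 10.1 and 63.9 in MSH. The order of the MSH arrays was not that of Dbp, since MSH replicate 2 was the lowest for Tef and the highest for Dbp. The log2 difference of Tef was 1.72 (SE 0.42). Bhlhe41, which encodes the repressor DEC2, had signals of 691, 893, 383 and 827 in PM-LD and of 239, 513, 298 and 270.1 in MSH, with a log2 difference of 1.09 (SE 0.51). That call was lost without any 1 of 6 arrays, while Dbp, Tef, Nr1d1 and Nr1d2 kept theirs without any 1 of the 8.

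The Period genes and Hlf did not pass. Per2 differed by 0.48 (SE 0.40), Per3 by 0.41 and Hlf by 0.34, and Per1 differed by -0.18 with PM-LD signals from 83.5 to 1121. In the opposite phase, none of 3 measured genes passed. Bmal1 had signals of 161, 221, 137 and 171 in PM-LD, against 235, 293, 225 and 463 in MSH. Every PM-LD array was below every MSH array in deposited signal, but not after normalization, and the log2 difference of -0.64 had an SE of 0.50. Nfil3, a repressor at the sites that Dbp activates, lay apart on both scales, at 239 to 293 in PM-LD and 337 to 407 in MSH, yet its log2 difference of -0.41 had an SE of 0.28 and did not pass. Clock itself differed by 0.09 (SE 0.17).

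Some of these calls changed with the arrays used, and whether RNA quality, atrial content or the smaller number of arrays was behind that was not tested. With the Gapdh ratio as a covariate all 5 clock calls held, with Dbp at 1.68 and Nr1d2 at 0.91. When arrays with a Gapdh ratio above 3 were left out, which removed PM-LD replicate 3 and MSH replicates 1 and 4, Nr1d1 and Nr1d2 no longer passed (0.54 and 0.48), and Dbp passed at 0.96. Without the arrays high in atrial transcripts, PM-LD replicate 2 and MSH replicate 1 among them, Nr1d2 (0.77) and Bhlhe41 (0.79) no longer passed.

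Set beside the other groups, Dbp averaged 944 ± 203 in PM-LD, 1133 ± 436 in PM-L, the leachable fraction of the particles, 930.0 ± 222 in zinc sulfate, 541 ± 235 in PM-HD, 355 ± 298 in MSH and 175 ± 49.0 in saline hearts (SD, n = 4 each). On the log2 scale PM-LD differed from saline by 2.38 and PM-HD differed from PM-LD by -0.93, both past the thresholds, while MSH differed from saline by 0.68 and did not pass. These contrasts share arrays and are given as separate values. Bmal1 averaged 173 in PM-LD, 172.7 in PM-L, 197 in zinc sulfate, 309 in PM-HD, 304 in MSH and 399 in saline.

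**Figure D2:**
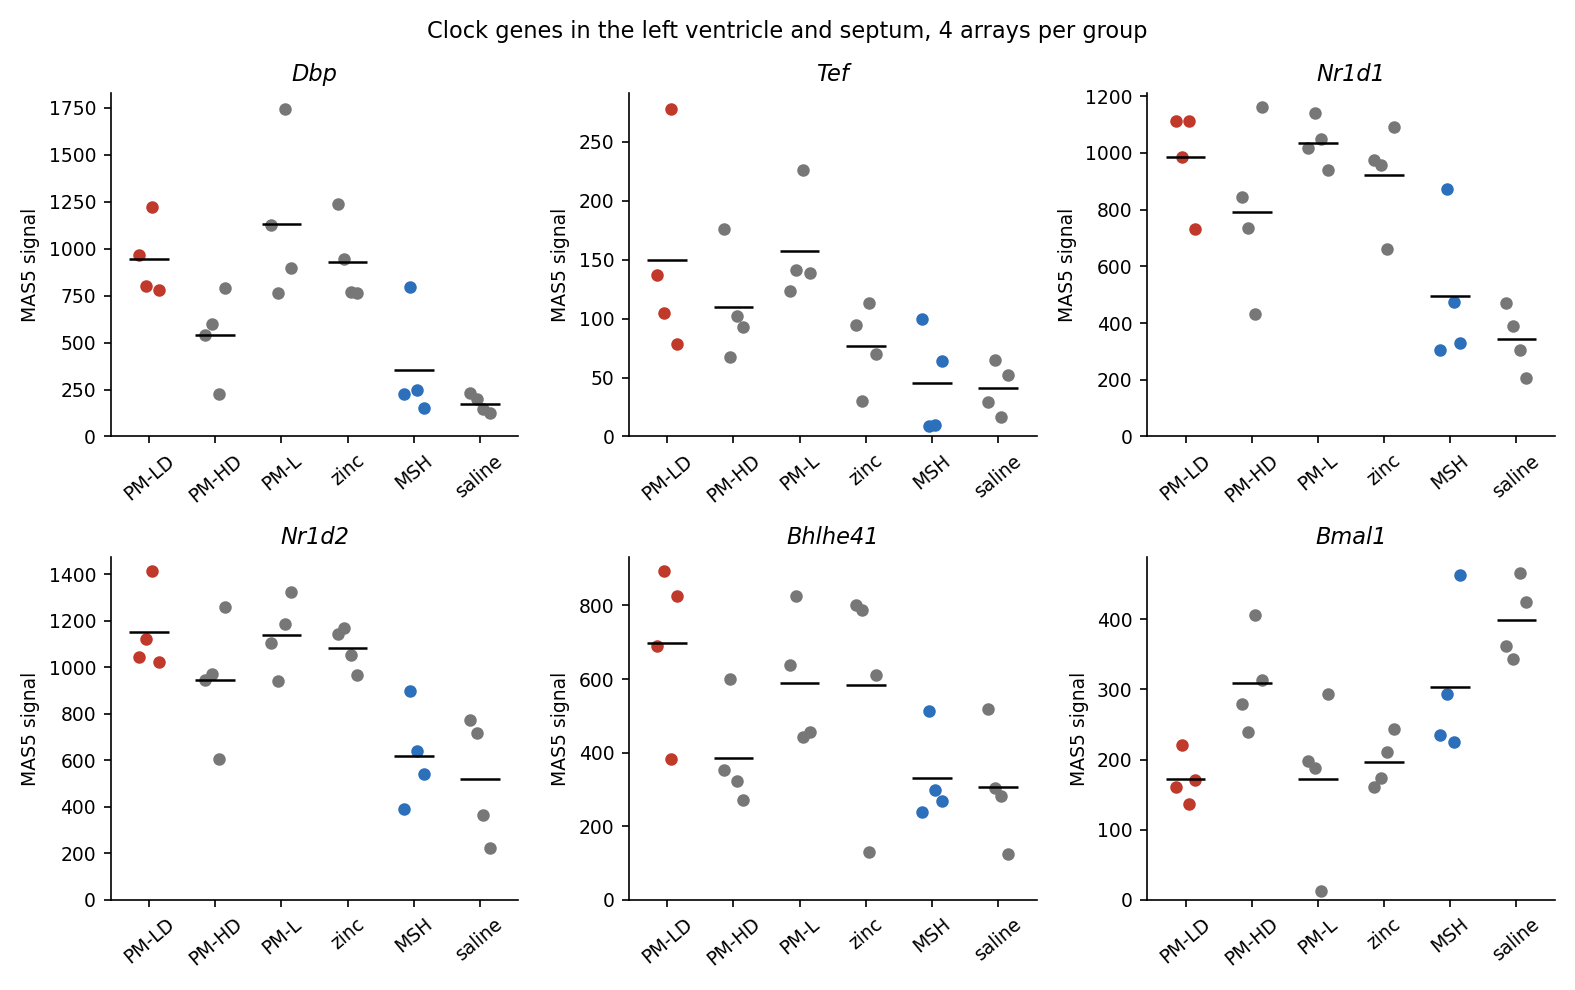
MAS5 signal (y axis, linear, from 0) of 6 clock genes on every array of PM-LD (red), MSH (blue) and the other 4 groups (gray), with 4 points per group and the group mean as a line. For Dbp the PM-LD arrays lie between 783 and 1222 and all but 1 of the MSH arrays lie below 250, and Bmal1 runs the other way.

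Promoter sequences are shown for the called clock genes with a clock motif, and for Bmal1 of the opposite phase, in the window of 250 bases before to 50 after the transcription start (RefSeq, assembly GRCr8, 13 promoters of 11 of the 12 clock genes measured). The motifs searched on both strands were the E-box CACGTG, the D-box TTATGTAA or TTACGTAA, and the RORE core TAGGTCA, which 6.42%, 1.01% and 2.63% of the 33469 promoters in the table hold. Among the 5 genes that were higher in PM-LD, Tef (chr7:115206577-115206876, plus strand), the second promoter of Nr1d1 (chr10:84229405-84229704, minus strand) and Bhlhe41 (chr4:180569306-180569605, minus strand) held the E-box. Bmal1 (chr1:176766078-176766377, plus strand), which ran lower without passing, held the RORE core through which REV-ERB proteins are known to act. Each sequence reads 5′ to 3′ with the motif in capitals, and a match describes the letters only.
Tef: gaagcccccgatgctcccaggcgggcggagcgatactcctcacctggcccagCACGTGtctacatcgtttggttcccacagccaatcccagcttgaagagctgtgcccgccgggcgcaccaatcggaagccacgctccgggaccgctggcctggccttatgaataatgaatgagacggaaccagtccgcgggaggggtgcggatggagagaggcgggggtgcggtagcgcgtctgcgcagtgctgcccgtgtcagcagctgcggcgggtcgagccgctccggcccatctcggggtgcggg
Nr1d1: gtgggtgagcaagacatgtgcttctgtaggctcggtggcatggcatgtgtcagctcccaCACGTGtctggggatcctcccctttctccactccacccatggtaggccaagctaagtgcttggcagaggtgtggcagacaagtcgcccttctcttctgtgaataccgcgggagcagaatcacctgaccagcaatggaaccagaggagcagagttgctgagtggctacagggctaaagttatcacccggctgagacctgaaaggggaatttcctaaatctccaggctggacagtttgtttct
Bhlhe41: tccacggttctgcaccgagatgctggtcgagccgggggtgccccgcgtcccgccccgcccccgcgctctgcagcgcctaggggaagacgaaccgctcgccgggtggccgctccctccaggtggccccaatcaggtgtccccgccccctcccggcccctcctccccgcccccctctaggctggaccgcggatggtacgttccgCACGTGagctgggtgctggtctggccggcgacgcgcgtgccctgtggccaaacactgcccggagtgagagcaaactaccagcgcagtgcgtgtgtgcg
Bmal1: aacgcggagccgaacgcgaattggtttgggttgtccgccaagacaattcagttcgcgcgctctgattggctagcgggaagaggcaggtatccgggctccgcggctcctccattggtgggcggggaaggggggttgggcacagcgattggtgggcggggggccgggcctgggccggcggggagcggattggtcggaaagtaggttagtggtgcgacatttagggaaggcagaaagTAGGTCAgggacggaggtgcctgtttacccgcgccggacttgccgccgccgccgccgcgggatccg
The windows of Dbp, Nr1d2 and the first promoter of Nr1d1 held none of these letters, and Per2, which did not pass and is not shown, held the D-box.

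The probe sets of lowest p, chosen after their values were seen, were mostly single genes with no list in common. Slc38a2, which encodes the amino acid transporter SNAT2, was bright and tight: 1539, 1397, 1524 and 1338 in PM-LD, against 2084, 2108, 2550 and 2336 in MSH. PM-LD was lower on every array, with a log2 difference of -0.67 (SE 0.13) and an adjusted p of 0.179 in limma. Saline hearts averaged 2140 and PM-HD hearts 1949, so that PM-LD stood below all of them. Dnaja1, a co-chaperone of the HSP70 family, fell on both of its probe sets, by 0.52 on the brighter and by 0.66 on the other, where signals were 669, 781, 738 and 580.4 in PM-LD and 1050, 1185, 1165 and 1022 in MSH.

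Acacb encodes the acetyl-CoA carboxylase that makes malonyl-CoA, a brake on the entry of fatty acids into mitochondria. Its signals were 269, 390.2, 422 and 447 in PM-LD, against 119, 239.6, 169 and 222 in MSH. No array overlapped, and the log2 difference was 1.09 (SE 0.23, adjusted p of 0.179 in limma). PM-HD hearts averaged 213 and saline hearts 216.5, while PM-L hearts averaged 337 and zinc sulfate hearts 290. The log2 difference of PM-HD from PM-LD was -0.84, past the thresholds. Daam1, a formin that builds actin filaments downstream of Wnt signals, had signals of 887, 854, 825 and 634 in PM-LD, against 1335, 1313, 1314 and 1617 in MSH. It was lower on every PM-LD array, by 0.82 (SE 0.18), while a second probe set of the gene differed by -0.15 and did not pass.

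Probe sets of Srsf2, a splicing factor, Pop4, a subunit of ribonuclease P, and Ptprs, a receptor phosphatase, were higher by 0.82 (SE 0.16), 0.72 (SE 0.15) and 0.81 (SE 0.18). Mean signals were 607, 383 and 489 in PM-LD, against 364, 245 and 289 in MSH. For Srsf2 and Ptprs this was not the brightest probe set of the gene, and the brightest is not described here. The groups overlapped for Ptprs, with PM-LD replicate 4 at 347 and MSH replicate 2 at 353. Several dim genes stood at the same end of the ranking. Ireb2, which encodes an iron-responsive RNA-binding protein, read 86.0, 139, 135 and 154 in PM-LD and 13.8, 19.4, 65.2 and 30.3 in MSH. Akr1d1, a steroid reductase, read 13.4, 11.7, 72.3 and 17.1 in PM-LD, against 238, 128, 189 and 200.3 in MSH. Aifm2, an oxidoreductase that protects membranes from lipid peroxidation, read 18.3, 14.2, 19.5 and 16.4 in PM-LD, against 127, 138, 109.7 and 101 in MSH. All 3 lay apart between the groups, but signals this low sit where MAS5 values are least certain, and only Ireb2 was higher in PM-LD. The probe set with the lowest adjusted p of all, 0.105, read 26.6, 20.5, 51.2 and 11.4 in PM-LD, against 302, 185, 159.9 and 275 in MSH, and carries no gene name in the annotation used here.

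The 12 genes of largest rise among bright genes were Dnm1l, Ppat, Lpcat3, Acacb, Nr1d2, Kpna1, Magt1, Hcn2, Nfs1, Vegfb, Gigyf2 and Socs2, with log2 differences of 0.73 to 1.31. They were drawn from 50 bright genes that passed higher and lay apart. Dnm1l, which encodes the GTPase that divides mitochondria, led them with signals of 277, 619, 260.5 and 740.1 in PM-LD, against 172, 146, 209.6 and 167 in MSH. PM-LD replicates 2 and 4 were far above replicates 1 and 3, and all 4 were above MSH. A second, dim probe set of the gene differed by 0.65 and did not pass. Ppat, the first committed enzyme of purine synthesis, read 284.8, 627, 391.7 and 528 in PM-LD, against 199.7, 179, 182 and 207 in MSH.

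Lpcat3, which puts polyunsaturated chains into membrane phospholipids, read 643, 1134, 451 and 874 in PM-LD, against 333, 287, 355 and 310.2 in MSH. A second probe set of Lpcat3, with means of 460 in PM-LD and 374 in MSH, differed by 0.35 and did not pass. Hcn2, a pacemaker channel that also occurs in ventricle, read 887, 1358, 1004 and 1530 in PM-LD and 541, 796, 657 and 582 in MSH. For both, replicates 2 and 4 were again the highest PM-LD arrays. Nfs1, which provides sulfur for iron-sulfur clusters, averaged 1019 ± 378 in PM-LD and 539 ± 60.1 in MSH, and Vegfb, a growth factor of the VEGF family, averaged 2061 ± 807 in PM-LD and 1058 ± 96.1 in MSH (SD, n = 4 each). Both calls were fragile, lost without any 1 of 4 and of 6 arrays, and that of Kpna1 was lost without PM-LD replicate 2 or MSH replicate 4.

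In 9 of these 12 genes the 2 highest PM-LD arrays were replicates 2 and 4, the arrays with the lowest Gapdh ratios of the 8 (1.22 each). Among all 283 genes called higher, the same pair was highest in 127, and replicate 3 was the lowest PM-LD array in 129. With the Gapdh ratio as a covariate all 12 calls held, Dnm1l at 1.04 and Hcn2 at 0.67. Without the arrays with a Gapdh ratio above 3, the calls of Nr1d2, Hcn2 (0.75) and Socs2 (0.38) were lost. Without the arrays high in atrial transcripts, 6 of 12 were kept. Gigyf2, a translational repressor, and Socs2, which restrains growth hormone signaling, were even across PM-LD, at 369 to 433 and 346 to 406, against 205 to 310 and 130 to 325 in MSH, and the call of Socs2 was lost without MSH replicate 4. A second, dim probe set of Gigyf2 differed by -0.09 and did not pass.

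The 12 genes of largest fall among bright genes were Gpr4, RT1-CE5, Mmp14, Car8, Daam1, Unc5cl, Aebp1, Nes, Btg3, Tspan8, Srsf9 and Gja5, with log2 differences of -1.31 to -0.67, drawn from 54 that passed lower and lay apart. Mmp14, a membrane-bound metalloproteinase that cuts collagen and activates MMP2, had signals of 563.5, 347, 482 and 263 in PM-LD, against 1035, 759.8, 1014 and 910.3 in MSH. Every PM-LD array was well below every MSH array, with a log2 difference of -1.14 (SE 0.32, adjusted p of 0.549 in limma). Aebp1, a matrix-associated protein of fibroblasts and smooth muscle, was even in MSH, from 446 to 480.2, and read 354, 240.0, 269 and 193 in PM-LD. Nes, the intermediate filament nestin, read 584, 338, 459 and 400.0 in PM-LD, against 769, 709.7, 826 and 739 in MSH.

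Gja5 encodes connexin 40, a gap junction protein of atria, the conduction system and arterial endothelium. Its signals were 483, 400.2, 661 and 459 in PM-LD, against 811, 749.6, 747 and 974 in MSH, and the array with the most atrial RNA, PM-LD replicate 2, was the lowest for it. A second, dimmer probe set of Gja5 differed by -0.18 and did not pass. Btg3, an antiproliferative factor, read 414, 339, 580.1 and 346 in PM-LD, against 763, 643.5, 690.2 and 725 in MSH. Gpr4, a proton-sensing receptor of endothelium, was split within PM-LD, with 265 and 217 in replicates 1 and 3 and 57.7 and 75.0 in replicates 2 and 4, against 269 to 485.5 in MSH. The call of Gpr4 was lost without any 1 of 4 arrays, that of Tspan8 without any 1 of 5, and that of Srsf9 without PM-LD replicate 4 or MSH replicate 4. Of the 12 genes, 11 kept their call with the Gapdh ratio as a covariate, the exception being Tspan8 (-0.55), 10 without the arrays with a Gapdh ratio above 3 and 7 without the arrays high in atrial transcripts.

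For some of these genes MSH, rather than PM-LD, stood away from saline. RT1-CE5, an MHC class I gene, had signals of 357, 353, 275 and 318 in PM-LD, against 471, 664, 737 and 1403 in MSH, and averaged 829 ± 221 in PM-HD and 284 ± 73.4 in saline hearts (SD, n = 4 each). PM-LD differed from saline by 0.22, which did not pass, and MSH by 1.37, which did. The call between PM-LD and MSH was lost without MSH replicate 4, the highest array, or without PM-LD replicate 3, and none of the 4 further probe sets assigned to this gene passed. Class I genes are near-identical copies, so the signal may belong to more than 1 of them. Nes likewise differed from saline by -0.16 in PM-LD and by 0.57 in MSH, and Unc5cl by -0.09 in PM-LD and by 0.70 in MSH, with only the MSH values past the thresholds. For Daam1 and Aebp1 it was PM-LD that differed from saline, by -0.58 and -0.55, both past the thresholds, and MSH by 0.24 and 0.18, neither past them. Daam1 was as low in other groups, averaging 800 in PM-LD, 777.5 in PM-L and 827 in zinc sulfate, against 1212 in saline. Aebp1 averaged 264 in PM-LD, 394 in PM-L, 313 in zinc sulfate and 402 in saline.

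**Figure D3:**
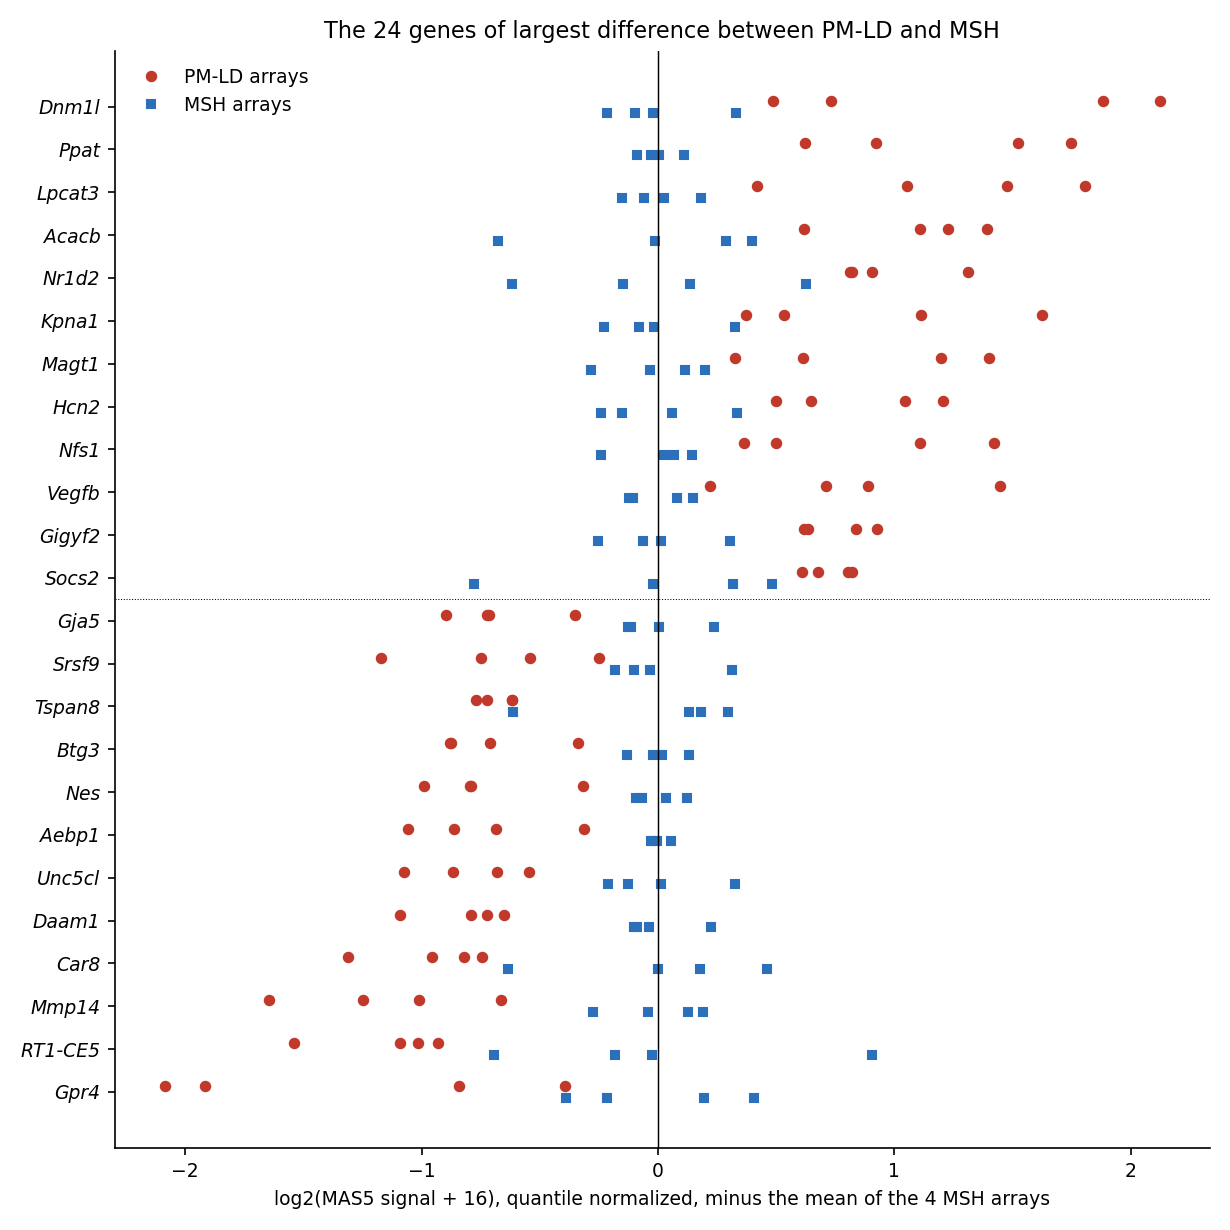
Normalized log2 level of 24 genes on each PM-LD array (red circles) and each MSH array (blue squares), relative to the mean of the 4 MSH arrays (x axis), with 1 gene per row. They are the largest differences among bright called genes whose arrays lay apart, so the gap between the groups follows from the choice. Bright called genes with overlapping arrays, such as Dbp (1.70), are not shown. The red points of Dnm1l lie in pairs, with replicates 2 and 4 far to the right of 1 and 3, while those of Gigyf2 and Socs2 lie close together.

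Among metabolic lists, the fatty acid list ran higher in most members but passed in few. Of 40 measured genes of mitochondrial fatty acid uptake and oxidation, 30 had a positive difference, against 46.7% of all genes, and the median was 0.19. In this list 2 were called higher (Acacb and Hadhb) and none lower, or 5.0%, against 2.72% of all genes called higher. Of these, Acacb makes the brake on fatty acid entry, so its rise does not stand for more oxidation. Hadhb, the beta subunit of the trifunctional protein of beta-oxidation, read 5158, 10110, 2519 and 12017 in PM-LD, against 2600, 2822, 2336 and 1852 in MSH. Replicates 2 and 4 were several times the MSH level, replicate 3 lay within it, and the log2 difference of 1.35 had an SE of 0.59 and no longer passed without PM-LD replicate 2 or 4 or MSH replicate 3 or 4. The mean log2 level of the list was 11.04, 11.27, 10.46 and 11.23 in PM-LD replicates 1 to 4 and 10.62 to 10.85 in MSH, so that replicate 3 was the lowest of all 8 arrays and the others were above all MSH arrays. The list's median was 0.003 with the Gapdh ratio as a covariate and 0.364 with median centring in place of quantile normalization. It was 0.351 with 12 calls, all higher, without the arrays with a Gapdh ratio above 3, and 0.388 with 5 calls, all higher, without PM-LD replicate 3. Over all probe sets those fits called 1894 and 1716, against 940 with all arrays.

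The NRF2 list, which holds NRF2 targets and other antioxidant enzymes, was of the same kind: 26 of 38 were positive, with a median of 0.14, and 2 were called higher, against 2.72% of all genes. Txnrd1, thioredoxin reductase, read 807, 1062, 798 and 1537 in PM-LD, against 755.5, 687, 666 and 668 in MSH (log2 difference 0.53, SE 0.19), with no overlap, but not past the thresholds without PM-LD replicate 4. Aco1, cytosolic aconitase and iron-responsive protein, averaged 607 ± 117 in PM-LD and 458 ± 44.5 in MSH (SD, n = 4 each), overlapped, and lost its call without PM-LD replicate 4 or MSH replicate 2, so that the list held 0 calls without PM-LD replicate 4. The list's median was 0.04 with the Gapdh covariate, and it was 0.30 with 9 calls, 8 of them higher, without the arrays with a Gapdh ratio above 3. Over all probe sets that last fit called 1894, against 940. Among genes induced by glucocorticoids, 2 of 17 were higher, against 2.72% of all genes: Glul, glutamine synthetase, at 2025, 2581, 1908 and 2332 in PM-LD against 1516, 1484, 1822 and 1567 in MSH, and Pdk4, a kinase that turns off glucose oxidation, at 331, 1028, 617 and 1044 in PM-LD against 407.5, 354, 509 and 200.4 in MSH. Glul lay apart and kept its call without any 1 array, and Pdk4 overlapped and lost its call without PM-LD replicate 2 or 4 or MSH replicate 4. Pdk4 was also the only call among 29 genes of PPARα and the fuel switch (3.45%, near the 2.72% of all genes called higher, with a median of 0.10).

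Bnip3, a mitophagy receptor, and Tfrc, the transferrin receptor, were the 2 of 31 hypoxia-induced genes called higher, by 0.83 (SE 0.32) and 0.51 (SE 0.21), against 2.72% of all genes called higher. Without PM-LD replicate 3 the list had 6 calls, 5 of them higher, and without the arrays with a Gapdh ratio above 3 it had 9, 6 of them higher. Tfrc read 1657, 1909, 1340.0 and 2673 in PM-LD, against 1162, 1333, 1177 and 1297 in MSH, and saline hearts averaged 1849. Its call was lost without PM-LD replicate 4 or MSH replicate 3, and that of Bnip3 without PM-LD replicate 2 or 4 or MSH replicate 1. None of 72 genes of the electron transport chain and ATP synthase was called, with a median of -0.03, and none of 29 sarcomere genes, 26 genes of the fetal program 30 proteasome subunits or 18 genes of muscle ubiquitin ligases and protein turnover was called. Without the arrays with a Gapdh ratio above 3, 10 electron transport genes (9 higher) and 7 proteasome subunits (all higher) were called. Calls rose over all probe sets too, from 940 to 1894 in that fit and to 1716 without PM-LD replicate 3. The rise in these list counts is therefore not particular to the lists.

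Matrix genes ran lower. Of 62 measured collagens and other matrix genes, 52 had a negative difference, the median was -0.22, and 6 were called lower and none higher, against 2.34% of all genes called lower. Besides Mmp14, these were Col5a3 (-0.91), a fibrillar collagen chain, Mmp23 (-0.65), Fbln5 (-0.48), an elastic fiber protein, and the dim proteases Mmp9 and Mmp3, named after their values were seen. Col5a3 read 221, 81.5, 76.7 and 97.6 in PM-LD, against 230.2, 232, 247 and 243 in MSH, so that only PM-LD replicate 1 was near MSH, and the call was lost without PM-LD replicate 3. The calls of Mmp23 and Fbln5 were each lost without any 1 of 4 arrays. The list had 3 calls, in place of 6, without PM-LD replicate 1 or 2 or MSH replicate 1 or 3, and 9 without PM-LD replicate 3. The mean log2 level of the list was 9.30, 9.07, 9.59 and 9.03 in PM-LD and 9.32 to 9.62 in MSH. Replicates 2 and 4 were the lowest arrays and replicate 3 lay among the MSH arrays. The median of the list was -0.05 with the Gapdh covariate and -0.36 with 10 calls, 9 of them lower, without the arrays with a ratio above 3. In all, 1894 probe sets were called without those arrays and 1716 without PM-LD replicate 3, against 940.

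Endothelial markers showed the same order of arrays without any call: all 11 measured markers had a negative difference, the median was -0.41, and the mean log2 level was 10.90, 10.15, 11.63 and 10.37 in PM-LD, against 11.31, 11.15, 11.06 and 11.32 in MSH (exact permutation p = 0.286, two-sided). Emcn, endomucin, differed by -0.87 and Kdr, the VEGF receptor, by -0.66. PM-LD replicate 3, with the highest Gapdh ratio, was the highest of the 8 arrays, and replicates 2 and 4, with the lowest ratios, were the lowest. The median was -0.07 with the Gapdh covariate and -0.68, with 5 markers called lower, without the arrays with a ratio above 3. Without PM-LD replicate 3, 4 were called lower. Calls over all probe sets rose as well in these fits, from 940 to 1894 and 1716. In bulk tissue, fewer cells of a type and less RNA per cell cannot be told apart. Of 10 smooth muscle markers 1 was called (10.0%, against 2.34% of all genes called lower). This was Acta2, smooth muscle actin, at 1098, 777, 1101 and 1204 in PM-LD against 1969, 1528, 1473 and 1295 in MSH. Its call was lost without PM-LD replicate 2 or MSH replicate 1. Of 10 fibroblast markers, 9 were negative with a median of -0.23 and none called.

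Of 40 cytosolic ribosomal protein genes, 34 were negative, with a median of -0.17. Rps15a (-0.50, SE 0.22) was the only call, 2.5% of the list, near the 2.34% of all genes called lower. Its call was lost without PM-LD replicate 2 or 4 or MSH replicate 2, 3 or 4. Without PM-LD replicate 3 the list had 8 calls, 7 of them lower, and without the arrays with a Gapdh ratio above 3 it had 4, all lower. Over all probe sets these fits called 1716 and 1894, against 940. The summed signal of the 40 was 261495 to 276676 in PM-LD and 286286 to 304091 in MSH and did not overlap, while the mean log2 level was 12.40, 12.30, 12.61 and 12.29 in PM-LD and 12.53 to 12.61 in MSH, with replicate 3 inside the MSH range. This list depended on scaling, with a median of -0.03 under median centring. For the fatty acid, NRF2, matrix, endothelial and ribosomal lists PM-LD replicate 3, of the highest Gapdh ratio, lay at the opposite end from PM-LD replicates 2 and 4, of the lowest. The MSH arrays did not all follow that order: MSH replicate 3, with the lowest MSH Gapdh ratio, had the highest matrix mean of the 4. By the Actb ratio, however, that array was the highest of the 8, at 3.42, so the 2 quality measures rank it differently. The part of RNA quality in these differences was not tested beyond the covariate and the arrays left out. The mean log2 level of the clock list was 8.63, 8.59, 8.99 and 8.10 in PM-LD, against 7.64, 7.97, 7.68 and 7.63 in MSH, with the highest value in the PM-LD array of highest ratio and every PM-LD array above every MSH array. Without the arrays with a Gapdh ratio above 3 the clock list had 3 calls, in place of 5, and a median of 0.48, in place of 0.96.

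**Figure D4:**
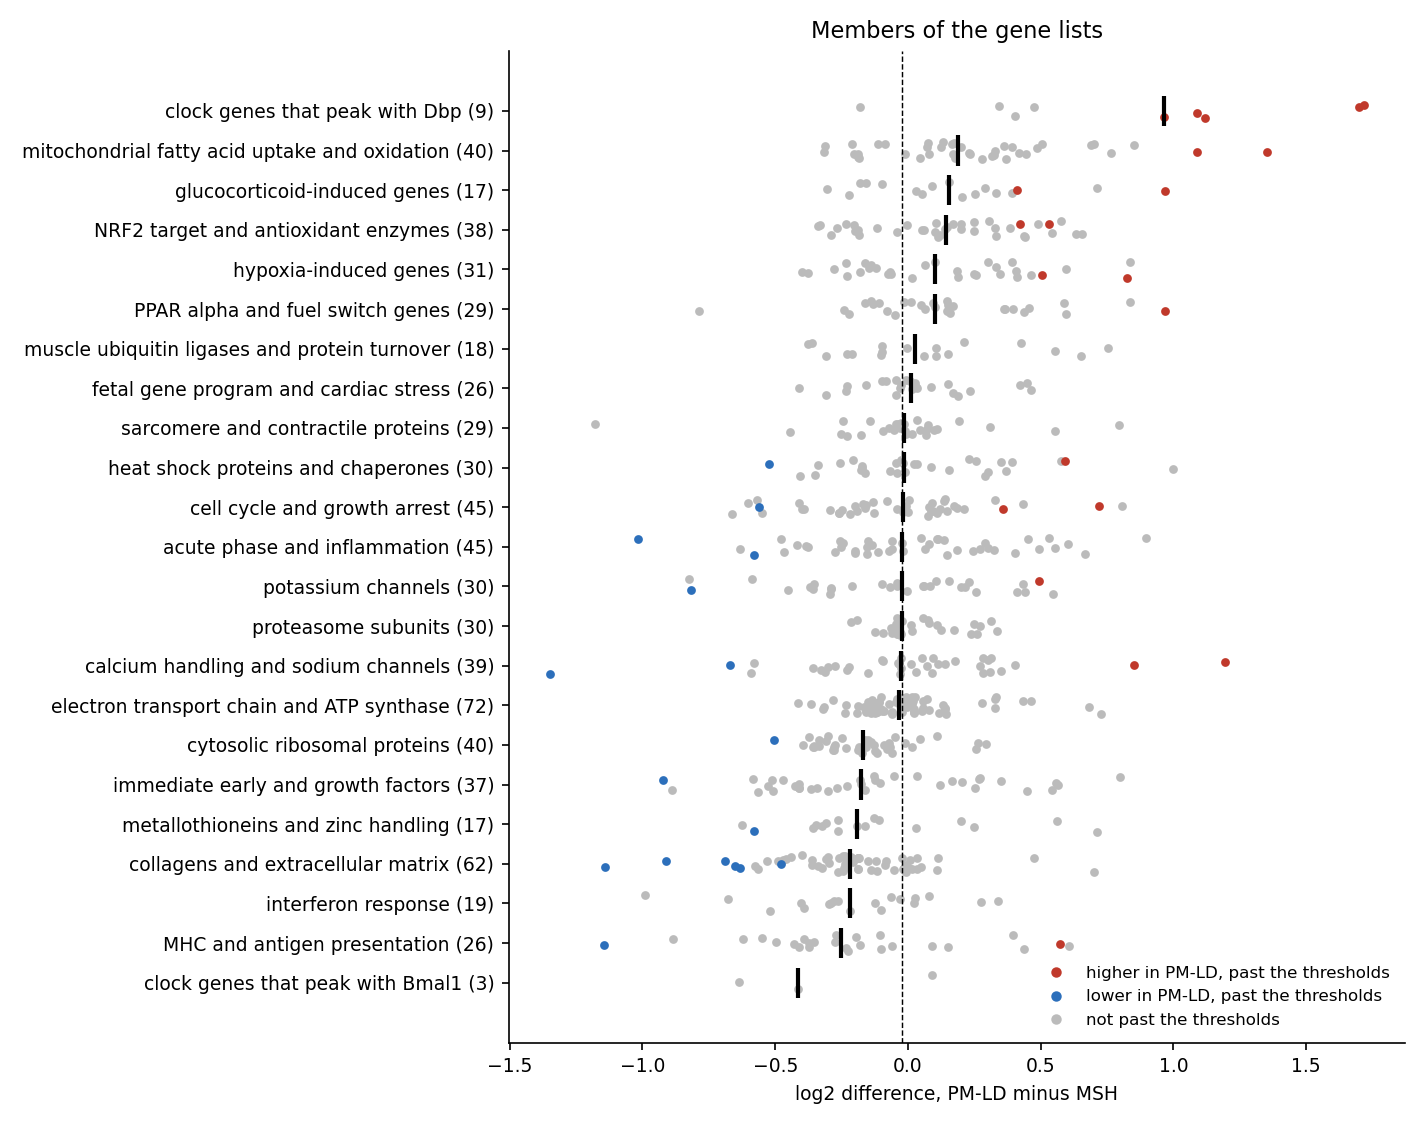
Log2 difference between PM-LD and MSH (x axis) for each measured member of 23 gene lists (rows, number of measured genes in parentheses), red or blue where the member passed the thresholds higher or lower in PM-LD, with the list median as a black bar and the median of all genes, -0.02, as a dashed line. Only the clock genes that peak with Dbp have a median far to the right, at 0.96.

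**Figure D5:**
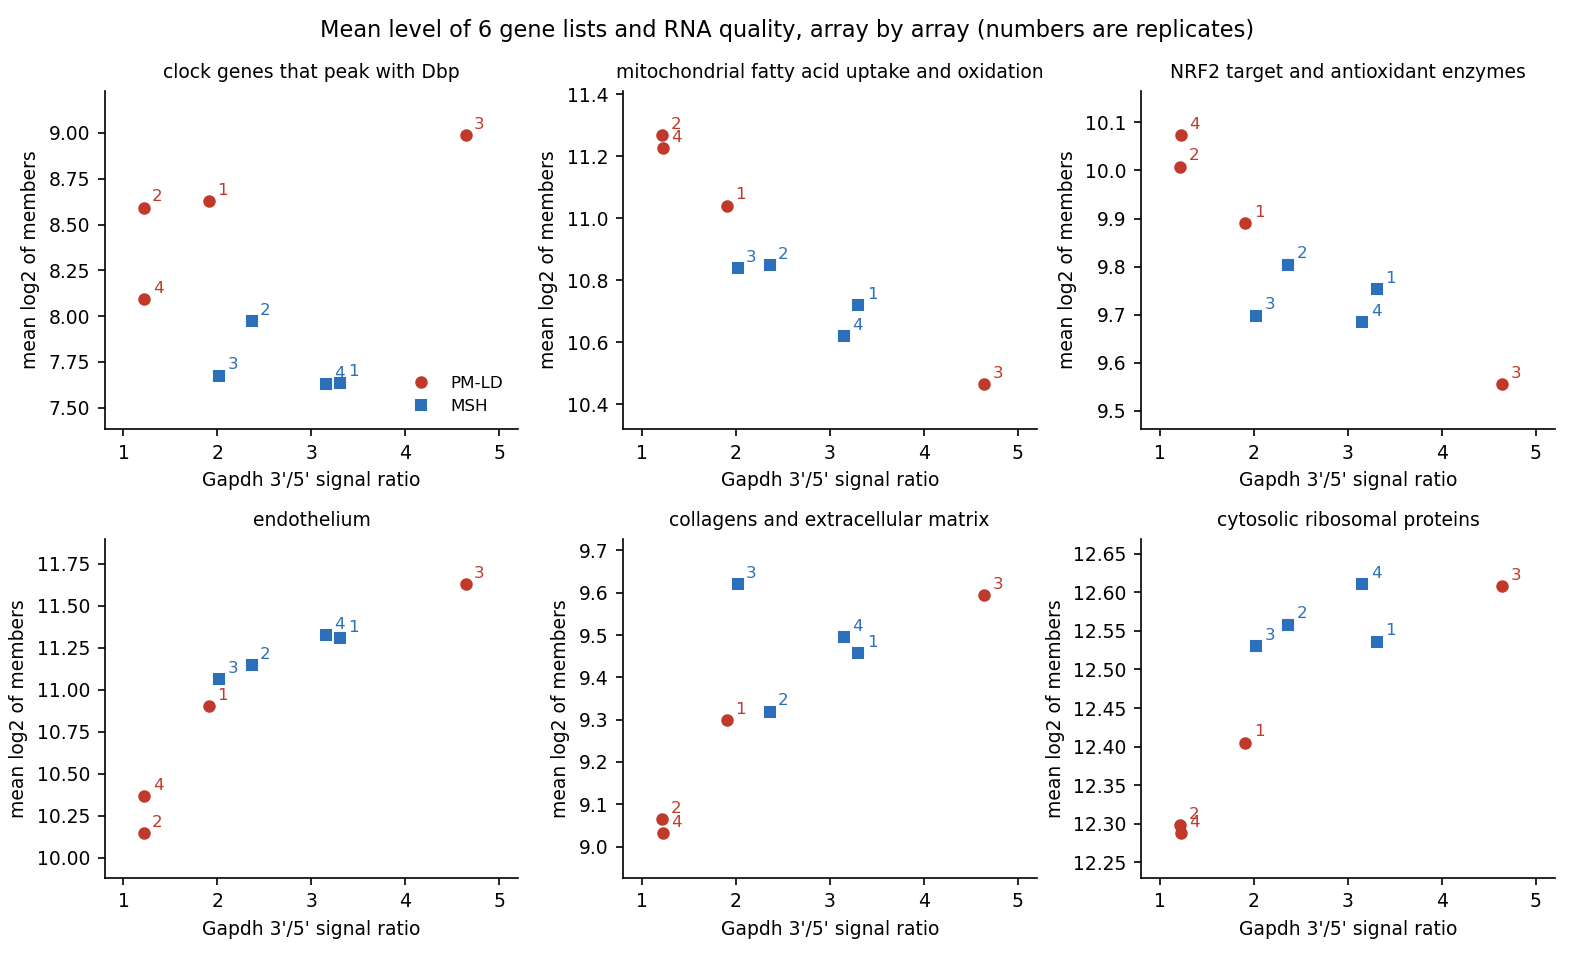
Mean log2 level of the measured members of 6 lists (y axis) against the Gapdh 3′ to 5′ signal ratio (x axis) on each PM-LD (red circles) and MSH (blue squares) array, numbered by replicate. For the fatty acid, NRF2, endothelial, matrix and ribosomal lists PM-LD replicate 3, at a ratio of 4.64, lies at the opposite end from PM-LD replicates 2 and 4, at 1.22, and for the clock genes it lies on the same side of MSH as they do.

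Zinc handling genes did not pass higher in PM-LD hearts with all arrays. Of 17 measured metallothionein and zinc transporter genes, none was higher and 1 was lower (5.88%, against 2.34% of all genes called lower). Of the differences 12 were negative, and the median was -0.19. The gene that passed was Slc30a2, zinc transporter 2, a dim probe set at 138, 96.4, 224 and 88.2 in PM-LD against 233, 229, 183 and 224 in MSH (log2 difference -0.58, SE 0.21). PM-LD replicate 3 lay inside the MSH range, and the call was lost without PM-LD replicate 4. Mt1, metallothionein 1, read 9.7, 8.4, 131.5 and 11.4 in PM-LD and 17.3, 10.3, 65.0 and 23.9 in MSH, near the floor of the scale in most hearts, and differed by 0.03 (SE 0.54). At such signals a change of Mt1 was not detectable. Mt2A, a further metallothionein, had the largest positive difference of the list, 0.71, and did not pass. In the fit on the 8 arrays alone, and without MSH replicate 3 or 4, 1 member of the list was called higher.

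Heat shock genes split evenly, with 14 of 30 positive, Dnaja1 called lower and Dnajb4 (0.59, SE 0.28) called higher. These 2 calls were 6.67% of the list, near the 5.06% of all genes. The call of Dnajb4 was lost without any 1 of 6 arrays, and that of Dnaja1 on its brighter probe set without MSH replicate 3. Hspa1a, the inducible HSP70, averaged 676 ± 242 in PM-LD and 748 ± 144 in MSH (SD, n = 4 each) and did not pass. In the acute phase and inflammation list 2 of 45 genes were lower (4.44%, against 2.34% of all genes): Socs3, a feedback inhibitor of cytokine signaling, at 136, 157, 163 and 166 in PM-LD against 250.3, 287, 263 and 231 in MSH, and Ccl2, a monocyte chemoattractant, at 14.4, 114, 89.5 and 74.7 in PM-LD against 126.5, 149, 167 and 189 in MSH. Both had low signals, and Ccl2 lay apart in the deposited signals but not after normalization. The call of Socs3 was lost without any 1 of 4 arrays, and that of Ccl2 without PM-LD replicate 1 or MSH replicate 3 or 4. For Ccl2, PM-LD differed from saline by 0.14, which did not pass, and MSH by 1.16, which did.

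Of 26 MHC and antigen presentation genes, 20 were negative with a median of -0.25, RT1-CE5 was called lower, and Ciita, the master regulator of class II genes, was called higher (0.57, SE 0.27) although its groups overlapped widely and its call was lost without any 1 of 4 arrays. None of 19 interferon-response genes passed, with 14 negative and a median of -0.22. The 2 calls of the MHC list were 7.69% of it, against 5.06% of all genes. Without PM-LD replicate 3 the MHC list had 6 calls (5 lower) and the interferon list 2 (both lower). Without the arrays with a Gapdh ratio above 3 they had 6 (5 lower) and 4 (3 lower). Over all probe sets these fits called 1716 and 1894, against 940. Markers of macrophages (7 of 8 positive, median 0.15, exact permutation p = 0.429, two-sided), B cells, neutrophils, erythroid cells, mesothelium, nerve, skeletal muscle, white and brown fat, lung and liver held no call, and Gja5 was the only call among 9 atrial markers. Of 11 T and NK cell markers 2 passed (18.2%), with a median of -0.01. Of 7 mast cell markers 1 passed (14.3%), with 4 negative and a median of -0.02. These lists, like the atrial one, are short, and 5.06% of all genes passed. Cd3e, a chain of the T cell receptor complex at 12.3, 1.2, 12.1 and 39.5 in PM-LD and 53.2 to 101 in MSH, was lower, Cd8b was higher by 0.75, and the mast cell protease Tpsb2 was higher by 1.18 with PM-LD signals from 32.5 to 392.4 and an SE of 0.56. Further chains of that complex, Cd3d (-0.01) and Cd3g (0.11), and Cd8a (-0.13) did not pass. The call of Tpsb2 was lost without any 1 of 7 arrays and that of Cd8b without PM-LD replicate 3 or 4 or MSH replicate 3, while Cd3e kept its call.

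Of 39 calcium handling and sodium channel genes, 10.3% passed, against 5.06% of all genes called in either direction. Hcn2 and Cacng6 (1.19) were higher and Gja5 and Cacna1h (-1.35), a T-type calcium channel, were lower. Of 30 potassium channel genes 2 passed (6.67%), near the share of all genes. Kcnh2, which carries a repolarizing current of the ventricle, was higher by 0.49 and Kcnab2 was lower by 0.82 on the log2 scale. A second probe set of Kcnab2 differed by 0.02 and did not pass. Kcnh2 read 348, 244, 335 and 229 in PM-LD against 210.4, 247, 169.5 and 239.7 in MSH, and 4 of 8 fits that left out 1 array lost the call. The same held for Kcnab2, while Cacng6 lost its call without PM-LD replicate 2 or MSH replicate 2 or 3 and Cacna1h without PM-LD replicate 4.

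Of 45 cell cycle genes 3 passed (6.67%), near the 5.06% of all genes. Mdm2, the ubiquitin ligase of p53, and Cdk4 were higher by 0.72 (SE 0.23) and 0.36 (SE 0.15), and Ccnd1, cyclin D1, was lower. Ccnd1 read 1266, 960.1, 1173 and 1183 in PM-LD, against 1799, 1423, 1684 and 1742 in MSH, apart on every array, with a log2 difference of -0.56 (SE 0.22) and a second probe set called at -0.81. The remaining probe set differed by -0.33 and did not pass. The call of Ccnd1 was lost without PM-LD replicate 2 and that of Cdk4 without any 1 of 4 arrays, and Mdm2 kept its call. Egr1, an immediate early factor, was lower by 0.92 on the log2 scale (SE 0.44) with overlapping groups, and lost its call without any 1 of 6 arrays. It was the only call among 37 immediate early and growth genes (2.7%, near the 2.34% of all genes called lower).

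Genes that the study or earlier results of these data name for other contrasts were tested in this one too. Cdkn1a, the cell cycle inhibitor p21, averaged 931 ± 180.0 in PM-LD, 1076 ± 193 in MSH and 1415 ± 185 in saline hearts (SD, n = 4 each), and its log2 difference of -0.20 (SE 0.23) between PM-LD and MSH did not pass. Ptprm, a receptor phosphatase, differed by -0.20 (SE 0.17), Fabp3, the heart fatty acid-binding protein, by 0.17 (SE 0.22) and Rbms2, an RNA-binding protein, by -0.24 (SE 0.21), and none of them passed.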

How the data were processed

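The authors deposited signal intensity on a linear scale from Affymetrix Rat 230A arrays, extracted with Microarray Suite 5.0 (MAS5) at default settings, which scales each array to a common trimmed mean (about 500). Detection calls were not used here, and the precision rests on 4 arrays per group. From these intensity values, log2(signal + 16) was computed and quantile normalized over the 24 arrays, and limma 3.58.1 (R 4.3.3) fitted 1 mean for each group. Log2 differences are PM-LD minus MSH on this scale, which understates changes of dim genes, and fold is 2 to that power. SE is limma's moderated standard error. The Benjamini-Hochberg adjustment ran over 15866 probe sets, the 57 Affymetrix controls left out. Exact permutation tests ran over the 70 arrangements of 4 against 4 arrays (smallest possible p = 0.0286, two-sided). Signals printed are as deposited, and a group lay apart when neither these nor the normalized values overlapped.

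A gene was its brightest probe set among those with 1 symbol in the platform annotation (12783 probe sets, 312 with several symbols, 2771 with none). Bright means above the median of all probe sets. Genes named were the 12 largest differences in each direction among bright called genes that lay apart, and up to 4 called members by lowest p of each of 23 gene and 18 marker lists. All clock genes were added, with genes named by the study or by earlier results of these data. The comparison, members, and lists were chosen with earlier results of these data known. Of 978 list entries, 801 had a probe set. The study's own tests started from robust multiarray averages, whereas the values here are MAS5 signals. The fit was tested on simulated data with known changes.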

Additional observations from a re-analysis of the deposited data

Results flagged for a closer look

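In 2 of the 140 groups of 4 arrays behind the named genes, 1 array stood far from the other 3, where chance alone gives about 1 in 20. Both were PM-LD arrays. Ciita, the regulator of MHC class II genes, read 328.6 in PM-LD replicate 4, against 193 to 237 in the other PM-LD arrays, and its call was lost without that array. Mt1, metallothionein 1, read 131.5 in PM-LD replicate 3, the array with the highest Gapdh ratio, against 8.4 to 11.4 in the other PM-LD arrays, and MSH replicate 3 read 65.0.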

How the results depend on the processing

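The count of 940 probe sets (527 genes) stayed within 1.5 times under other pseudocounts, median centring (627 higher and 369 lower), an intensity trend in the prior, the removal of dim probe sets, a Gapdh or atrial covariate, and symmetric fold limits. None of the 70 named genes changed sign where either fit called it. Genes without a call could change sign, such as Per1, at -0.18 in the main fit and 0.04 with the Gapdh covariate. The count was 1894 probe sets and 1239 genes without the arrays of a Gapdh ratio above 3, in which 542 of the 940 were shared. Without the arrays of an atrial mean above 11 it was 658 probe sets, with 41.7% of the 940 shared, the lowest share of the settings tried. Leaving out 1 array gave 694 to 1716 probe sets, 418 to 1050 genes, and 0 to 4 probe sets at an adjusted p under 0.05 in limma, where the fit on the 8 arrays alone gave 1. The replicate block gave 1114 probe sets, but same-numbered arrays did not deviate together (correlations of -0.125 to 0.05), so the numbers do not pair the arrays. Dim signals, RNA quality, and 4 arrays per group limit what could be called. Many calls of single genes at unadjusted p are expected to be false, and no probe set passed the adjusted threshold in the main fit.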
